A study of Mus musculus with 5 samples.

Results

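Orphan G protein-coupled receptors of neurons and the Gprin proteins were examined in ribosome-bound RNA of Drd2 neurons of the mouse central amygdala (CeA). The set held 8 genes chosen by name, the receptors Gpr3, Gpr6, Gpr12, Gpr52, Gpr83 and Gpr149 and the proteins Gprin1 and Gprin3, and 7 of them were matched among the 15093 genes of the deposited table. The set was drawn up with the difference between fear conditioned and home cage libraries already known, and Gpr6 and Gprin3 are among the genes the study names. The group differences of the 8 genes are therefore given as a description, with no test.

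Ribosome-bound RNA was isolated by translating ribosome affinity purification (TRAP), in which ribosomes carrying an eGFP-tagged L10a subunit are pulled down with an antibody. The Drd2-TRAP animals were adult mice that carried a Drd2-Cre transgene and a floxed-stop Rosa26 allele for the tagged subunit, so the tag marks cells that express, or once expressed, Cre under Drd2 control. All 5 libraries shared this genotype, and each was made from bilateral punches centred over the CeA and pooled from 3 animals. Fear conditioned mice gave 3 libraries (replicates 2, 3 and 4), animals labelled home cage gave 2 (replicates 6 and 7), and the brains were taken 2 h after the session. The study describes that session as tone and shock conditioning and its controls as hearing the tone in the chamber without shock, whereas its methods and the sample labels call the controls home cage (HC), and the labels place the collection after extinction. The spread within a group is that between pools of animals.

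An orphan receptor is a receptor of the G protein-coupled class with no generally accepted natural ligand. Gpr3, Gpr6 and Gpr12 form a small family related to the receptors for sphingosine 1-phosphate, lysophosphatidic acid and cannabinoids, and they raise cyclic AMP through Gs without an added ligand. Gpr6 is known for its high expression in the indirect pathway neurons of the striatum, which carry Drd2 and Adora2a. Gpr52 also couples to Gs in striatal Drd2 neurons, Gpr83 was found as a glucocorticoid-induced receptor, and Gpr149 has no assigned ligand. Gprin1 and Gprin3 are not receptors but membrane-associated proteins that bind activated alpha subunits of the Gi, Go and Gz class and take part in neurite outgrowth.

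The depth on genes, recovered as whole reads from the normalised values, was 21070588, 25022225 and 19988438 reads in fear conditioned replicates 2, 3 and 4, and 27937520 and 19605318 reads in home cage replicates 6 and 7. Levels are given as normalised counts per 1000000 (CPM), where the divisor is a size-factor-adjusted library total. A count of 3 reads, taken as the floor of a library, was worth 0.142, 0.125 and 0.149 CPM after fear conditioning and 0.1 and 0.158 CPM in home cage. Intervals and floors treat reads as independent and cover only the error of counting reads. PCR copies of a molecule are not independent, so the error of counting molecules can be larger. The 2 home cage libraries stood apart from each other, with 976 genes listed at 0 in replicate 6 and 2681 in replicate 7, against 349, 263 and 159 in the fear conditioned libraries. Fold changes are fear conditioned minus home cage on the log2(CPM + 1) scale, which understates the change of low genes.

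The promoters of Gpr6, Gpr3 and Gprin3 are shown because these 3 genes had the highest fold changes of the set, described next, and those of Gpr12, which was also higher without overlap, are not printed. They are RefSeq sequences of build GRCm38.p6, each from 250 bases before to 50 bases after the annotated start and written 5′ to 3′ on the strand of the gene. Capitals mark a cyclic AMP response element (TGACGTCA, its own reverse complement) in Gpr6 and an AP-1 motif (TGACTCA, or TGAGTCA on the other strand) in Gpr3, and no capitals appear in Gprin3 because neither motif, nor TATAAA, is in its window.
Gpr6, chr10:41072241-41072540, minus strand: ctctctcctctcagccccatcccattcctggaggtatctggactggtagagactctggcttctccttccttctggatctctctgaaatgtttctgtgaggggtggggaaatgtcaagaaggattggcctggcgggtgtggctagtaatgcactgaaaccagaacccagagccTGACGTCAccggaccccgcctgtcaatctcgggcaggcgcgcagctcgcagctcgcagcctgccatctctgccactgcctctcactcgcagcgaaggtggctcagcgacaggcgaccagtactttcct
Gpr3, chr4:133212487-133212786, minus strand: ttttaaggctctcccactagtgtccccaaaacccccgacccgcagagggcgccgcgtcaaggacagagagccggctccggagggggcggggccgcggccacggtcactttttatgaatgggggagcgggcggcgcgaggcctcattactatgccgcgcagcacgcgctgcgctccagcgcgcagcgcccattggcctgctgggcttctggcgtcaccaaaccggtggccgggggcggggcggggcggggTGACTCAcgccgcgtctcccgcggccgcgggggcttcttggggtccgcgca
Gprin3, chr6:59426257-59426556, minus strand: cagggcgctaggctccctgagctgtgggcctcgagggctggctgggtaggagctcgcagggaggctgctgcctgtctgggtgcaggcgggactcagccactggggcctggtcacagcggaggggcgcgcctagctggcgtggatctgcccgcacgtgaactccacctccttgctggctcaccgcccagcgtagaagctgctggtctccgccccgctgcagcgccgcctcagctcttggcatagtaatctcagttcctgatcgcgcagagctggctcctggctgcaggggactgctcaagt

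The full element TGACGTCA began 78 bases before the start of Gpr6, and it is present in 1.79% of the 32851 promoters of the same length in the table. The AP-1 motif of Gpr3 began 1 base before the annotated start, and 5.2% of promoters hold it on either strand. The shorter motif TGACG, or CGTCA on the other strand, which the full element of Gpr6 contains on both strands, was found in the windows of Gpr6, Gpr3 and Gpr83 and in 20.8% of all promoters. TATAAA was found in the window of Gpr83 and in 13.6% of promoters on either strand. None of these letters was found in the windows of Gpr12 (2 annotated starts), Gprin1 or Gprin3, and Gpr52 and Gpr149 were not matched to a promoter. The motifs were chosen with the sequences in view, and a match is a description of letters, not of binding.

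The levels of 4 of the 7 measured genes, Gpr3, Gpr6, Gpr12 and Gprin3, were higher in every fear conditioned library than in either home cage library. The other 3, Gpr83, Gpr149 and Gprin1, overlapped between groups. Among the 13560 genes tested (mean CPM of at least 1), 20.2% were higher without overlap and 16.1% were lower without overlap, 36.4% in either direction. Since the set was chosen with this contrast known, nothing is read from its share. Across all genes, limma with Benjamini-Hochberg adjustment (two-sided) called 0 (0%) at an adjusted p under 0.05 and a log2 fold change over 0.5 in size, while 2280 had an unadjusted p under 0.05 and the smallest adjusted p was 0.197. The count was also 0 with the quasi-likelihood test of edgeR, but 1115 with its likelihood ratio test and 1296 with DESeq2. In bulk RNA of this kind, fewer cells of a type and less RNA per cell cannot be told apart.

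**Figure D1:**
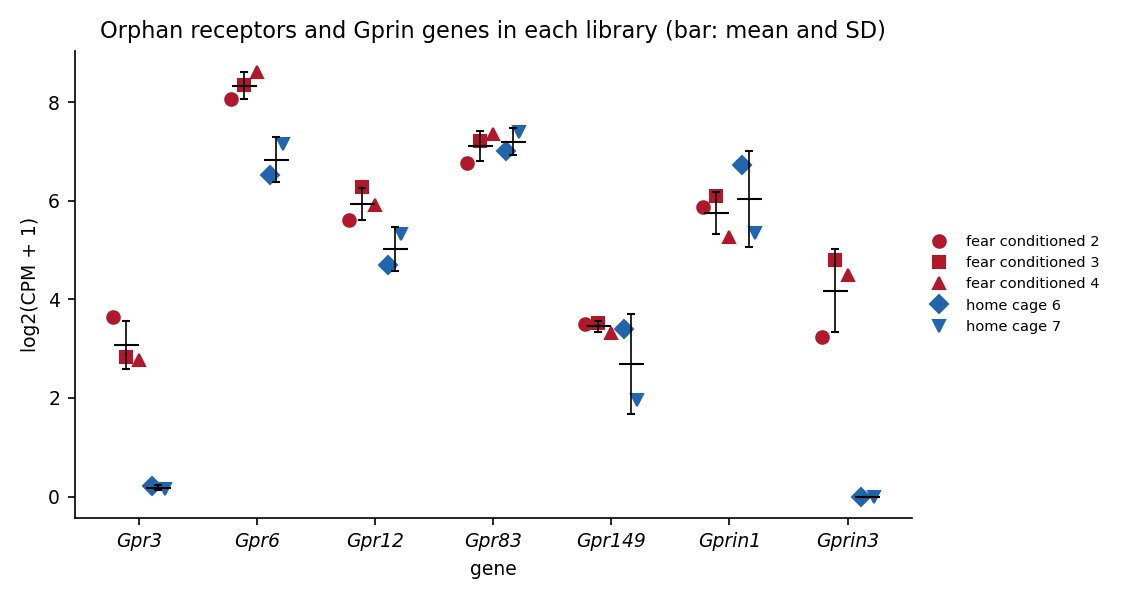
Level of each gene of the set, as log2(CPM + 1), in the 3 fear conditioned libraries (red) and the 2 home cage libraries (blue), with the mean and SD of each group in black. The red and blue points are apart for Gpr3, Gpr6, Gpr12 and Gprin3 and overlap for Gpr83, Gpr149 and Gprin1.

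Gpr6 (ENSMUSG00000046922), a constitutively active Gs-coupled receptor of indirect pathway neurons, stood at 265, 323 and 390 CPM in the 3 fear conditioned pools against 90.6 and 142 CPM in the 2 home cage pools. The lowest fear conditioned library was therefore well above the higher home cage library, home cage replicate 7. These values rest on 5586, 7749 and 7849 reads and on 2712 and 2687 reads, so the error of counting reads was small beside the spread between libraries. The group means were 326 ± 62.5 CPM (SD, n = 3) and 116 ± 36.2 CPM (SD, n = 2), a ratio of 2.81, and the log2 fold change was 1.5 (standard error 0.29). Leaving out each library in turn kept this difference between 1.18 and 1.82.

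Per length of transcript, Gpr6 was the most abundant gene of the set in both groups. It had 184 ± 35.3 CPM per kilobase (SD, n = 3) after fear conditioning, where its mean ranked 363rd of the 15084 genes with a usable length, and 65.5 ± 20.4 CPM per kilobase (SD, n = 2) in home cage, where it ranked 1118th. Drd2 itself had 164.8 ± 47.4 and 76.8 ± 37.1 CPM per kilobase in the same libraries. The ratio of Gpr6 to Drd2 per kilobase was 1.14 ± 0.12 (SD, n = 3) after fear conditioning and 0.894 ± 0.17 (SD, n = 2) in home cage, and the groups overlapped at 1.01, where fear conditioned replicate 4 met home cage replicate 6. On the log2 scale of the values, the ratio of Gpr6 to Drd2 was higher by 0.35 after fear conditioning, the ratio to Penk higher by 0.47, and the ratio to Adora2a lower, with a difference of -0.42. The groups overlapped for the ratios to Drd2 and Adora2a and all but touched for Penk. Penk encodes enkephalin, a marker peptide of indirect pathway neurons. Against Drd2, Adora2a and Penk, the difference of Gpr6 was thus smaller than its log2 fold change of 1.5 and had no single direction. This does not extend to Sp9, another indirect pathway marker, to which no ratio was computed. Sp9 had 42.2, 65.5 and 51.7 CPM after fear conditioning against 41.9 and 61.2 CPM in home cage, a log2 fold change of 0.046.

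Gpr12 (ENSMUSG00000041468), the family member best known from neurite outgrowth and cyclic AMP signalling in the brain, had 48.1, 76.2 and 59.1 CPM after fear conditioning against 25.1 and 39.3 CPM in home cage. All fear conditioned libraries were above both home cage libraries, but the gap between fear conditioned replicate 2 and home cage replicate 7 was small. The means were 61.2 ± 14.2 CPM (SD, n = 3) and 32.2 ± 10.1 CPM (SD, n = 2), with a log2 fold change of 0.91 (standard error 0.35) that was 0.60 without home cage replicate 6 and 1.23 without home cage replicate 7. Relative to Drd2 its log2 ratio differed by -0.22 between groups and relative to Penk by -0.10, in both cases less than the SD of the fear conditioned libraries (0.47 and 0.46). Relative to Adora2a it differed by -0.99, without overlap.

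Gpr3 (ENSMUSG00000049649), which keeps cyclic AMP high in neurons and oocytes, had 11.5, 6.08 and 5.81 CPM after fear conditioning (243, 146 and 117 reads) and 0.167 and 0.105 CPM in home cage (5 and 2 reads). Home cage replicate 7 was below the floor of 3 reads and home cage replicate 6 was little above it. Because a home cage library was below the floor, only a lower bound of the ratio is given. On reads pooled within each group it was 26.1, the lower end of the 95% exact binomial interval. This bound covers the error of counting reads, not the spread between libraries. The fitted log2 fold change of 2.90 (standard error 0.57) depends on the pseudocount, and other settings gave values from 1.95 to 5.78.

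Gpr6 made up most of the level of its family per length in all 5 libraries. Gpr6 made up 87.1% ± 2.39 (SD, n = 3) of the summed Gpr3, Gpr6 and Gpr12 level per kilobase after fear conditioning and 83.3% in both home cage libraries. Gpr12 made up 11.8% ± 2.35 (SD, n = 3) after fear conditioning and 16.6% in both home cage libraries. Gpr3 contributed between 0.635% and 1.80% after fear conditioning and between 0.0295% and 0.0730% in home cage. None of the 3 shares overlapped between groups.

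Gpr83 (ENSMUSG00000031932), for which peptides cut from proSAAS have been proposed as ligands, had 108, 148 and 162 CPM after fear conditioning against 127 and 167 CPM in home cage. The groups overlapped throughout, with the lowest value in fear conditioned replicate 2 and the highest in home cage replicate 7. The means were 139 ± 28.2 CPM (SD, n = 3) and 147 ± 28.3 CPM (SD, n = 2), and the log2 fold change of -0.09 (standard error 0.27) changed sign with the library left out. Drd2 itself was higher after fear conditioning, and the log2 ratio of Gpr83 to Drd2 was -1.57 ± 0.22 (SD, n = 3) against -0.33 ± 0.45 (SD, n = 2), without overlap. Gpr83 made up 11.6% ± 0.43 (SD, n = 3) of the summed level per kilobase of the 7 genes after fear conditioning and 26.1% ± 0.16 (SD, n = 2) in home cage. Pcsk1n, the gene of proSAAS, had 914, 522 and 712 CPM after fear conditioning against 460 and 579 CPM in home cage, with overlapping groups and a log2 fold change of 0.43 (standard error 0.30) that was 0.24 without fear conditioned replicate 2 and 0.27 without home cage replicate 6.

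Gpr149 (ENSMUSG00000043441) had 10.4, 10.5 and 9.04 CPM after fear conditioning against 9.55 and 2.90 CPM in home cage. The fear conditioned libraries lay close together, home cage replicate 6 lay among them, and only home cage replicate 7 was low. The log2 fold change of 0.77 (standard error 0.62) rested on home cage replicate 7 and was 0.06 without it. With home cage replicate 6 or fear conditioned replicate 4 left out, Gpr149 would count as higher without overlap. In the RefSeq annotation Gpr149 overlaps Gm34048, and without the strand of the reads both cannot be told apart.

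**Figure D2:**
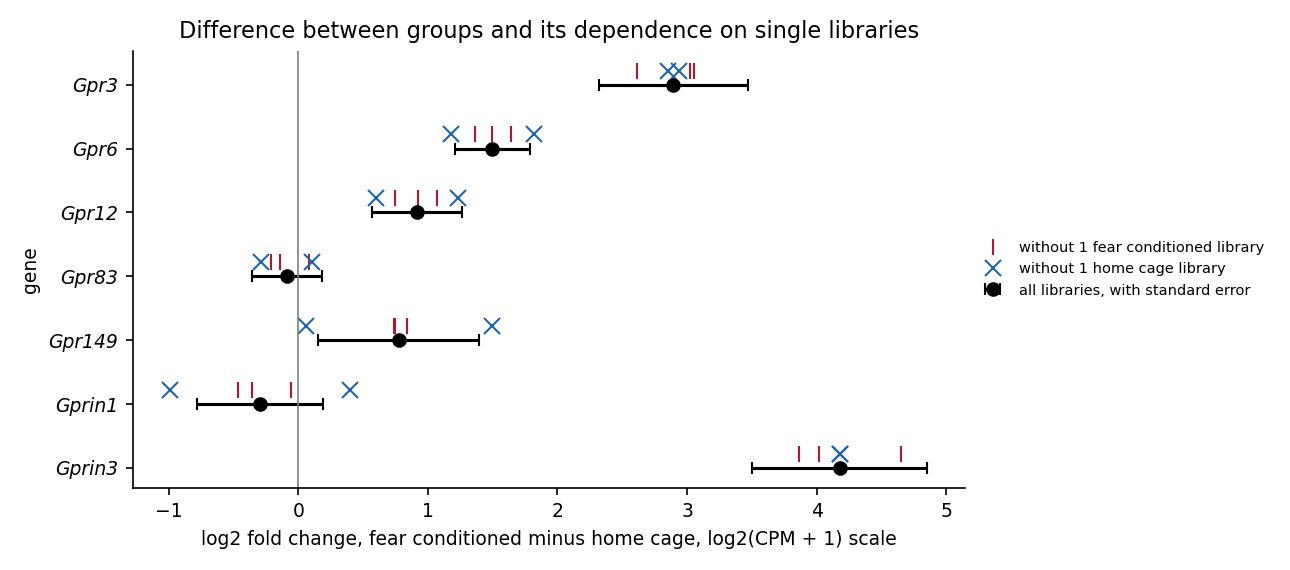
Log2 fold change of each gene of the set, fear conditioned minus home cage on the log2(CPM + 1) scale, with its standard error (black), and the value with 1 fear conditioned (red) or 1 home cage library (blue) left out. Gprin1 and Gpr83 cross 0, Gpr149 moves from 0.06 to 1.49 with the home cage library used, and Gpr3, Gpr6, Gpr12 and Gprin3 stay above 0.

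Gprin3 (ENSMUSG00000045441), a Gprin protein described in Drd2 projection neurons of the striatum, had 8.39, 26.9 and 21.6 CPM after fear conditioning, and both home cage libraries listed it at 0. Fear conditioned replicate 2 (177 reads) was well below replicates 3 and 4 (647 and 435 reads), and the mean was 19.0 ± 9.55 CPM (SD, n = 3). Against the mean floor of 3 reads in the home cage libraries, the fear conditioned mean of Gprin3 was at least 147-fold higher. This is a ratio of means, unlike the pooled bound given for Gpr3. It does not hold for fear conditioned replicate 2 alone, whose level was below the mean. Among the 4524 genes with a fear conditioned mean between 5 and 30 CPM, the range that holds Gprin3 and Gpr3, 19 (0.420%) had 0 reads in both home cage libraries and 37 (0.818%) had 5 reads or fewer in both. In home cage replicate 7 alone, 9.31% of these genes had 0 reads, against 1.13% in home cage replicate 6.

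Gprin1 (ENSMUSG00000069227), the founding member of the Gprin family, had 57.5, 67.1 and 37.6 CPM after fear conditioning against 105 and 39.7 CPM in home cage. Home cage replicate 6 was above all other libraries, while home cage replicate 7 lay close to the lowest fear conditioned library. The log2 fold change was -0.30 (standard error 0.48), and it was 0.40 without home cage replicate 6 and -0.99 without home cage replicate 7. The 2 Gprin genes thus had opposite signs, but only for Gprin3 were the groups apart, and a test of the difference between them was not made.

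Gpr52 was not matched to any gene of the table by name or synonym, and by the rule for the set it counts as not expressed. The table lists genes that exceed 1 CPM in at least 1 library (the lowest such maximum was 1.00 CPM). Gpr52 lies within Rabgap1l in the RefSeq annotation, and whether its reads were counted with Rabgap1l was not tested. Rabgap1l, which encodes a Rab GTPase-activating protein, had 58.0, 76.3 and 70.7 CPM after fear conditioning against 100.1 and 174 CPM in home cage, so that all fear conditioned libraries were below both home cage libraries (log2 fold change -0.95, standard error 0.31). The level of Gpr52 was not analysed here.

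Ordered by mean level per kilobase after fear conditioning, the genes ran Gpr6 (184), Gpr83 (29.7), Gpr12 (24.8), Gprin1 (6.53), Gprin3 (6.13), Gpr149 (2.33) and Gpr3 (2.09). The libraries of neighbouring genes overlapped for Gpr83 and Gpr12, for Gprin1 and Gprin3 and for Gpr149 and Gpr3, so these pairs are not ordered beyond their spread. In home cage the order was Gpr6 (65.5), Gpr83 (31.4), Gpr12 (13.1), Gprin1 (8.75), Gpr149 (1.45), Gpr3 (0.0365) and Gprin3 (0 reads), and only Gpr12 and Gprin1 overlapped. Summed over the 7 genes, the level was 255 ± 44.1 CPM per kilobase (SD, n = 3) after fear conditioning and 120 ± 23.8 (SD, n = 2) in home cage, and the share of Gpr6 in it was 71.9% ± 3.16 against 53.9% ± 6.29.

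**Figure D3:**
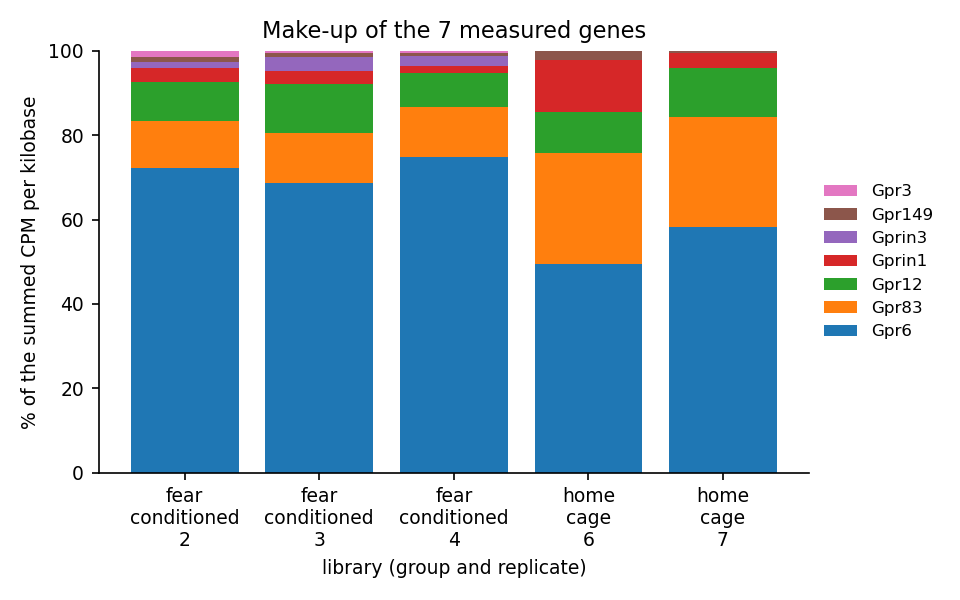
Share of each gene in the summed CPM per kilobase of the 7 measured genes, in percent, for each library. Gpr6 takes between 68.6% and 74.9% of each fear conditioned bar and 49.4% and 58.3% of the home cage bars, Gpr83 takes more in home cage, and Gprin3 is missing there.

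Among 40 orphan receptors with a level per length (the 5 of the set and 35 of 46 others), Gpr6 ranked 2nd in each of the 5 libraries. Gpr83 ranked 6th, 4th and 4th after fear conditioning and 3rd in both home cage libraries, and Gpr12 ranked 7th, 5th and 6th and then 10th and 8th. Gpr149 ranked between 23rd and 29th, and Gpr3 between 20th and 29th after fear conditioning and 37th and 28th in home cage.

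Of the 31 other orphan receptors with a mean of at least 1 CPM, 6 (19.4%) were higher and 2 (6.45%) lower without overlap. Among all genes tested these shares were 20.2% and 16.1%, so the share higher was near that of all genes. The median log2 fold change of the 31 was 0.25 beside 0.08 for all genes, turning to -0.082 with edgeR and -0.12 with DESeq2. Limma called 0 of the 31. Those higher included Gpr27, Gpr75, Gpr135, Gpr176 and Gpr180, and those lower included Gpr37. Gpr27 had 38.8, 45.2 and 43.2 CPM after fear conditioning against 14.1 and 2.16 CPM in home cage, with the highest log2 fold change of the list (2.65, standard error 0.69). Home cage replicate 7 was near 0 for several receptors that home cage replicate 6 held, such as Gpr61 (19.1 and 0.105 CPM in replicates 6 and 7) and Gpr101 (20.0 and 0.0527 CPM).

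**Figure D4:**
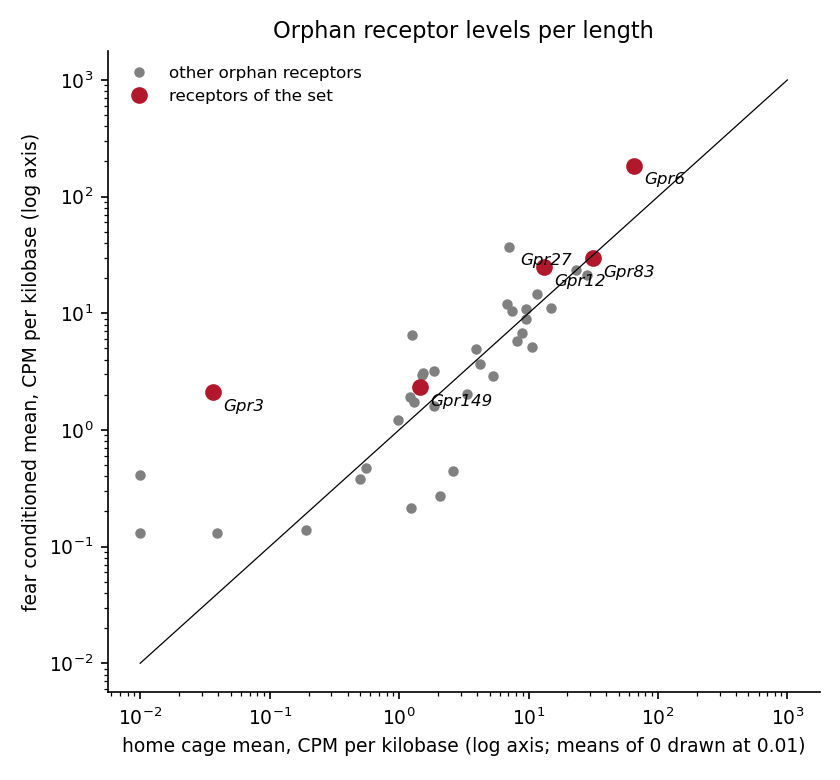
Mean level of 38 orphan receptors in CPM per kilobase, home cage (horizontal) against fear conditioned (vertical), both on log axes, with the 5 receptors of the set in red and the line of equal levels in black; a mean of 0 is drawn at 0.01. Gpr6 is the highest of those plotted on both axes, Gpr3 lies far above the line, and Gpr83 and Gpr149 lie near it.

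The lipid receptors related to Gpr3, Gpr6 and Gpr12 gave no common direction. Of the 10, 6 were tested, and 1 (16.7%) was higher and 2 (33.3%) were lower without overlap, beside 20.2% and 16.1% of all genes tested. The median log2 fold change of 0.25 was 0.54 without fear conditioned replicate 2, 0.030 without replicate 3, 0.042 without replicate 4 and 0.15 without home cage replicate 6. S1pr3 was listed at 0 in both home cage libraries and had 1.52, 3.71 and 1.84 CPM after fear conditioning. S1pr2 and S1pr5, receptors for sphingosine 1-phosphate, were the 2 lower ones, and S1pr5 had 9.20, 3.16 and 9.38 CPM after fear conditioning against 20.3 and 20.4 CPM in home cage. Cnr1, the neuronal cannabinoid receptor, had 83.7, 257 and 268 CPM after fear conditioning against 111 and 194 CPM in home cage, with overlap.

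The Gs and Golf branch, through which Gpr3, Gpr6, Gpr12 and Gpr52 signal, was measured for all 15 genes of its list. Of these, 5 (33.3%) were higher and 2 (13.3%) lower without overlap, beside 20.2% and 16.1% of all genes tested. The limma test passed 0. The median log2 fold change was 0.46, but 0.063 and 0.064 in the quasi-likelihood and likelihood ratio tests of edgeR and 0.027 in DESeq2. Those higher were Gnal, the Golf alpha subunit of striatal neurons, Gnb5, Gng7, Adcy9 and Ric8b, a chaperone of Gs-class alpha subunits. Gnal had 483, 886 and 785 CPM after fear conditioning against 425 and 459 CPM in home cage, a log2 fold change of 0.65 (standard error 0.31). Gng7, the gamma subunit that pairs with Golf, had 1401, 2347 and 1825 CPM after fear conditioning against 746 and 1128 CPM in home cage. Adcy5, the main adenylyl cyclase of striatal neurons, had 558, 769 and 863 CPM against 396 and 686 CPM, with overlap. Adcy1 and Gnas were the 2 lower ones, and Gnas is uncertain because its locus holds overlapping and antisense transcripts. Adcy1 had 86.1, 91.5 and 76.9 CPM after fear conditioning against 195 and 290 CPM in home cage. Its log2 fold change was -1.48 (standard error 0.26).

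The alpha subunits that Gprin proteins bind gave 0 genes higher and 3 lower without overlap (Gnai1, Gnai2 and Gnai3) of 5 tested. These are 0% and 60%, beside 20.2% and 16.1% of all genes tested, and 0 of the 5 passed the limma test. Their median log2 fold change of -0.33 was -0.16 without fear conditioned replicate 3 and -0.58 without home cage replicate 6. Gnai1 had 129, 133 and 109 CPM after fear conditioning against 296 and 195 CPM in home cage, a log2 fold change of -0.95 (standard error 0.26). Gnao1, the most abundant, had 797, 989 and 995 CPM against 608 and 1382 CPM, with both home cage libraries outside the fear conditioned range on opposite sides. Gprin2 was not matched to the table. Of the 7 arrestins and receptor kinases, which end receptor signalling, 0 were higher and 2 (Arrb2 and Grk2, 28.6%) were lower without overlap. The shares of all genes tested were again 20.2% and 16.1%. The median log2 fold change of this list was -0.66 (-0.35 without home cage replicate 6), and 0 passed.

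The genes whose profile over the 5 libraries was most like that of Gpr6 were Bmpr2, Gm12992, Gm17357, Nudt12 and Mchr1, with root mean square differences of the centred log2 values between 0.08 and 0.14, and 59 genes lay within 0.25. Of these 5, only Mchr1, the receptor for melanin-concentrating hormone, was well expressed, with 75.1, 90.3 and 96.4 CPM after fear conditioning against 30.02 and 38.5 CPM in home cage. Those most like Gprin3 were Gpsm2, Fbxo32, Raver2, Ptpn7 and Fblim1, at differences between 0.32 and 0.48. Gpsm2, which binds Gi-class alpha subunits, had 9.39, 19.7 and 12.7 CPM after fear conditioning against 0 in both home cage libraries. Within the set, Gpr12 was nearest to Gpr6, at 0.35.

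Marker levels were read in the bound libraries, which hold no unbound fraction, so the enrichment by the pull-down was not tested here. The study compared bound and unbound RNA by qPCR. Drd2 had 326, 375 and 555 CPM after fear conditioning against 128 and 262 CPM in home cage, Adora2a had 453, 771 and 775 against 105 and 275 CPM, and Penk was the most abundant gene per length in both groups. Markers of CeA cell groups were not found evenly. Prkcd stood at 11.5, 11.9 and 11.2 CPM after fear conditioning against 14.2 and 41.1 CPM in home cage, and Sst at 133, 65.5 and 72.0 against 146 and 280 CPM. Tac2 had 830 reads in home cage replicate 6 and 0 in replicate 7, and Crh had 29.9 and 1.11 CPM there. After fear conditioning Tac2 had 24.2, 4.12 and 10.1 CPM and Crh had 33.7, 7.33 and 14.5 CPM, so both overlapped between groups. The defining Drd2 neuron markers, Drd2, Adora2a and Penk, were found in every library. Sp9, the other indirect pathway marker of the list, was also found in every library. Unlike them it overlapped between groups, with a log2 fold change of 0.046.

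Several lists of cell type markers moved with the groups, whereas microglia and endothelial genes were apart in both directions and interneuron genes overlapped. The part of any list in the differences of the set was not tested. Among all genes tested, 20.2% were higher and 16.1% lower without overlap. Of 4 indirect pathway markers, 3 were higher without overlap (median log2 fold change 1.09, but 0.64 with quantile normalization and 0.71 without home cage replicate 6). Of 8 striatal projection neuron markers 5 were higher without overlap (median 0.66, but 0.38 without home cage replicate 6), with summed levels of the latter of 10925, 14194 and 13873 CPM after fear conditioning against 6227 and 9677 CPM in home cage. Of 6 direct pathway markers 3 were higher without overlap (median 1.38, but 0.82 without home cage replicate 7). Choroid plexus markers went the other way, with 8 of 11 tested lower without overlap and sums of 113, 186 and 118 CPM after fear conditioning against 2259 and 1962 CPM in home cage. Ttr, the most abundant of them over all libraries, had 0.522, 22.1 and 0.348 CPM against 913 and 1320 CPM, while Kcnj13 and Calml4 were at or near 0 in all fear conditioned libraries. Astrocyte markers were lower without overlap in 5 of 7 (sums of 1009, 845 and 1032 against 2158 and 2920 CPM, Slc1a2 most abundant), oligodendrocyte markers in 3 of 6 (1809, 1248 and 2640 against 2707 and 5183 CPM), and pallial glutamatergic markers in 3 of 6 (200, 186 and 47.8 against 356 and 256 CPM, Slc17a7 most abundant).

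CeA markers were lower without overlap in 4 of 8 (611, 404 and 414 against 742 and 817 CPM, Wfs1 most abundant). The shares of all genes tested, for this and the next lists, were 20.2% higher and 16.1% lower. Microglia markers were higher in 2 and lower in 1 of 6 (65.0, 39.6 and 71.3 against 76.4 and 60.0 CPM, Csf1r most abundant), endothelial markers higher in 1 and lower in 1 of 4 tested (30.7, 6.91 and 26.6 against 27.2 and 161 CPM, Ly6c1 most abundant), and interneuron markers neither in any of 5 (101, 56.9 and 85.6 against 130 and 190 CPM, Npy most abundant). By comparison, the sum of the 7 measured genes of the set was 508, 657 and 685 CPM after fear conditioning against 358 and 391 CPM in home cage.

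**Figure D5:**
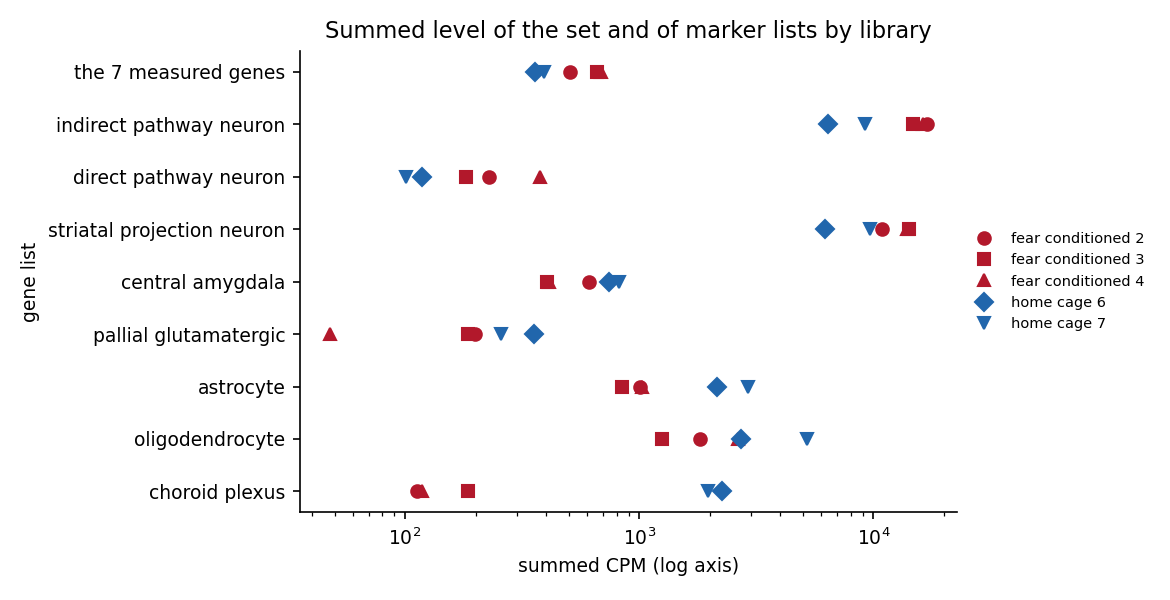
Summed CPM, on a log axis, of the 7 measured genes and of lists of cell type markers in each fear conditioned (red) and home cage (blue) library. The set and the striatal lists are higher in the red libraries, and the astrocyte and choroid plexus lists are higher in the blue ones.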

How the data were processed

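Ribosome-bound RNA was sequenced by the authors from 5 libraries (3 fear conditioned, 2 home cage), each a pool of 3 animals. The authors deposited a normalised signal for each gene and library, near CPM of an effective library size, with a gene length. Libraries were amplified with a SMARTer kit and read as paired ends, the methods name the Tuxedo and DESeq software, the sample labels name DESeq and mm8 without a role, and the aligner, counter and use of strand are not given in the sources used here. Dividing each library by its smallest value above 0 gave whole numbers for 100% of values (tolerance 0.01), used as recovered reads. The 9 lengths below 0 were left out of levels per kilobase. Genes were joined by identifier, since 43 names repeat.

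Groups were compared with limma 3.58.1 on the whole table as log2(value + 1), keeping genes whose mean reached 1. The code was run on simulated counts with large changes and a fixed dispersion. That run does not show how the test performs on these libraries. Alternatives used edgeR 4.0.16 and DESeq2 1.42.0 on recovered reads (R 4.3.3). Levels, shares and figures were made with Python 3.11.15, pandas 2.3.3, scipy 1.17.1 and matplotlib 3.10.9. Nearest genes were the 5 with the smallest root mean square difference of centred log2 values, for Gpr6 and Gprin3 (Gpr52 was not matched). Named genes were the set, the fixed lists, genes overlapping a member and these nearest genes. A few genes of the lists entered the counts and sums but are not reported here by name or plotted. The members and lists were chosen with earlier results of these data known. The range of 5 to 30 CPM for genes at 0 and the motifs were chosen after the values were seen.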

Additional observations from a re-analysis of the deposited data

How the results depend on the processing

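The number of genes past both cutoffs was 0 in limma and stayed 0 with a pseudocount of 0.1, no filter, a minimum of 1 CPM in all libraries, quantile or upper quartile normalization, limma voom and the quasi-likelihood test of edgeR, but was 1115 with edgeR's likelihood ratio test and 1296 with DESeq2. It ranged from 0 to 8025 with 1 library left out, 8025 without home cage replicate 6 and 3722 without home cage replicate 7, fits in which the lone home cage library is assumed to vary like the other group. Genes whose groups do not overlap numbered 4930, and from 5410 to 11638 with 1 library left out (11638 without home cage replicate 6, 10615 without home cage replicate 7). The members higher without overlap numbered 4, and 5 with quantile normalization. They numbered 2 with a minimum of 1 CPM in all libraries, which removes Gpr3 and Gprin3, and 4 to 5 with 1 library left out. These alternatives were added after seeing the data.

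Gpr6 and Gpr12 kept their sign under every alternative, Gpr6 between 1.18 and 1.82 and Gpr12 between 0.60 and 1.23. Gprin3 stayed above 0 where it was kept, but its size depended on the setting. Its log2 fold change was 4.18 in the main fit, 3.86 to 4.65 with 1 library left out and 3.66 to 11.8 in other settings. Gpr83 turned to 0.08 without fear conditioned replicate 2 and 0.11 without home cage replicate 7 (-0.29 to 0.11 with 1 library left out), and Gprin1 to 0.40 without home cage replicate 6 (-0.99 to 0.40 with 1 library left out). The median of the other orphan receptors turned to -0.082 in both edgeR tests, -0.12 in DESeq2 and -0.085 without home cage replicate 7 (-0.085 to 0.27 with 1 library left out, 0.63 in limma voom), that of pallial markers to 0.016 without home cage replicate 6 (-1.47 to 0.016 with 1 library left out, -1.69 with a minimum of 1 CPM in all libraries), and that of microglia markers to -0.044 with a minimum of 1 CPM in all libraries and -0.10 without home cage replicate 7 (-0.10 to 0.64 with 1 library left out). The Gs and Golf median of 0.46 was 0.063 and 0.064 in the edgeR tests and 0.027 in DESeq2, and that of indirect pathway markers 0.64 with quantile normalization. The median of all genes shifted by 0.16 in limma voom, -0.12 in both edgeR tests and -0.16 in DESeq2. The cause of these changes was not tested. No paired analysis was possible because the groups share no replicate numbers. With 3 and 2 libraries a group, no test for an outlying library was made.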
